A study of Mus musculus with 6 samples.

Results

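Peaks of accessible chromatin around 10 genes of the actin cytoskeleton, Acta2, Tagln, Cnn1, Cnn2, Tpm1, Tpm2, Myl9, Actn1, Vcl and Zyx, were described in mouse mammary epithelial cells given TGFβ. The genes were chosen by name, and every region with at least 1 base within 100 kb of the 5′ end of one of them was taken, which gave 98 of 39435 regions. The 5′ end is that of the gene record in the GENCODE vM1 annotation of NCBIM37, the assembly also called mm9. A region here is a run of peaks of at least 150 bp, in which gaps under 1000 bp were merged within each peak list and then over the 3 lists. No region was counted for more than 1 of the genes.

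The cells were NMuMG, a line of epithelial cells that was derived from normal mammary tissue of the mouse, and ATAC-seq was used, in which the transposase Tn5 places sequencing adapters into open DNA. All cells first spent 6 h without serum. Vehicle, an acid and albumin solution without TGFβ, was then added for 2 h, and other cells received 5 ng/ml of TGFβ1 for either 2 h or 12 h. There were 6 samples, 2 biological replicates in each of 3 conditions, and for each condition the authors made 1 list of peaks found in both replicates. As all cells are of 1 line, they are 1 model of epithelium, and the 12 h cells also differed from vehicle in the time without serum, so that TGFβ and time cannot be told apart at 12 h. Replicates have no values of their own in these lists, so that no test between conditions could be run, and the lists do not give the reads behind a peak. All comparisons below are therefore descriptions of 1 list per condition, with 95% Wilson intervals on shares that cover counting error only. A region absent from a list is one that did not pass the threshold of the authors, which is not the same as closed chromatin.

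Stress fibres are contractile bundles of actin filaments that are held together by α-actinin, coated by tropomyosin and pulled by non-muscle or smooth muscle myosin II. Their ends are anchored in focal adhesions, where vinculin and zyxin link the bundles to integrins. In epithelial cells that undergo an epithelial to mesenchymal transition under TGFβ, the cortical actin ring is replaced by stress fibres, and several of these genes are known targets of serum response factor (SRF), which binds the CArG box, and of its actin-regulated coactivators.

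Over the whole genome the vehicle list held 16765 regions, the 2 h list 32548 and the 12 h list 33079. Of 7 epithelial marker genes, Krt8 and Krt18 had their 5′ end in all 3 lists, Cdh1 in both TGFβ lists and Cldn4 in the 12 h list alone, while those of Epcam, Cldn3 and Cldn7 lay in no list. None of the 13 marker genes of fibroblasts, smooth muscle, endothelium and blood that were found in the annotation had its 5′ end in a list. Over all protein-coding genes, 57.1% had their 5′ end in no list.

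At the 10 loci, regions shared by all 3 lists and regions shared by the TGFβ lists alone were about equally frequent. Of the 98 regions, 44 were in the vehicle list, 87 in the 2 h list and 90 in the 12 h list. Regions of all 3 lists numbered 41 (41.8%, Wilson interval 32.6 to 51.7), where the share over all regions was 38.4%. Regions of both TGFβ lists without a vehicle region, called gained below, numbered 38 (38.8%, 29.7 to 48.7), against 28.5% over all regions. A further 9 regions were in the 12 h list alone (9.18%, 4.91 to 16.5, against 16.3% over all regions) and 7 in the 2 h list alone (7.14%, 3.50 to 14.0, against 12.9%). Just 3 regions were in the vehicle list and lacking in a TGFβ list (3.06%, against 3.8% over all regions), and none was in the vehicle list alone. The word gained thus refers to list membership, since no signal was measured here.

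The share of gained regions moved when the TGFβ lists were shortened by width. Such a cut removes narrow intervals first, and of the 38 gained regions 26 were under 500 bp at 2 h and 24 at 12 h. Of the 41 regions of all 3 lists, 5 and 2 were. A fall in the gained share was thus partly set by the cut and cannot be credited to list length alone. When both TGFβ lists were shortened to their 18337 widest intervals, the number in the vehicle list, 8 of 59 regions at the 10 loci were gained (13.6%, 7.03 to 24.5), against 12.6% over all regions. These 8 lay at Cnn2, Tpm1, Tpm2 and Actn1, and 1 of them was the region over the 5′ end of Tpm1. Other genes share the windows: for 31 of the 98 regions the member was the gene with the nearest 5′ end, and of these 16 were gained (51.6%, 34.8 to 68.0) and 11 were in all 3 lists.

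**Figure D1:**
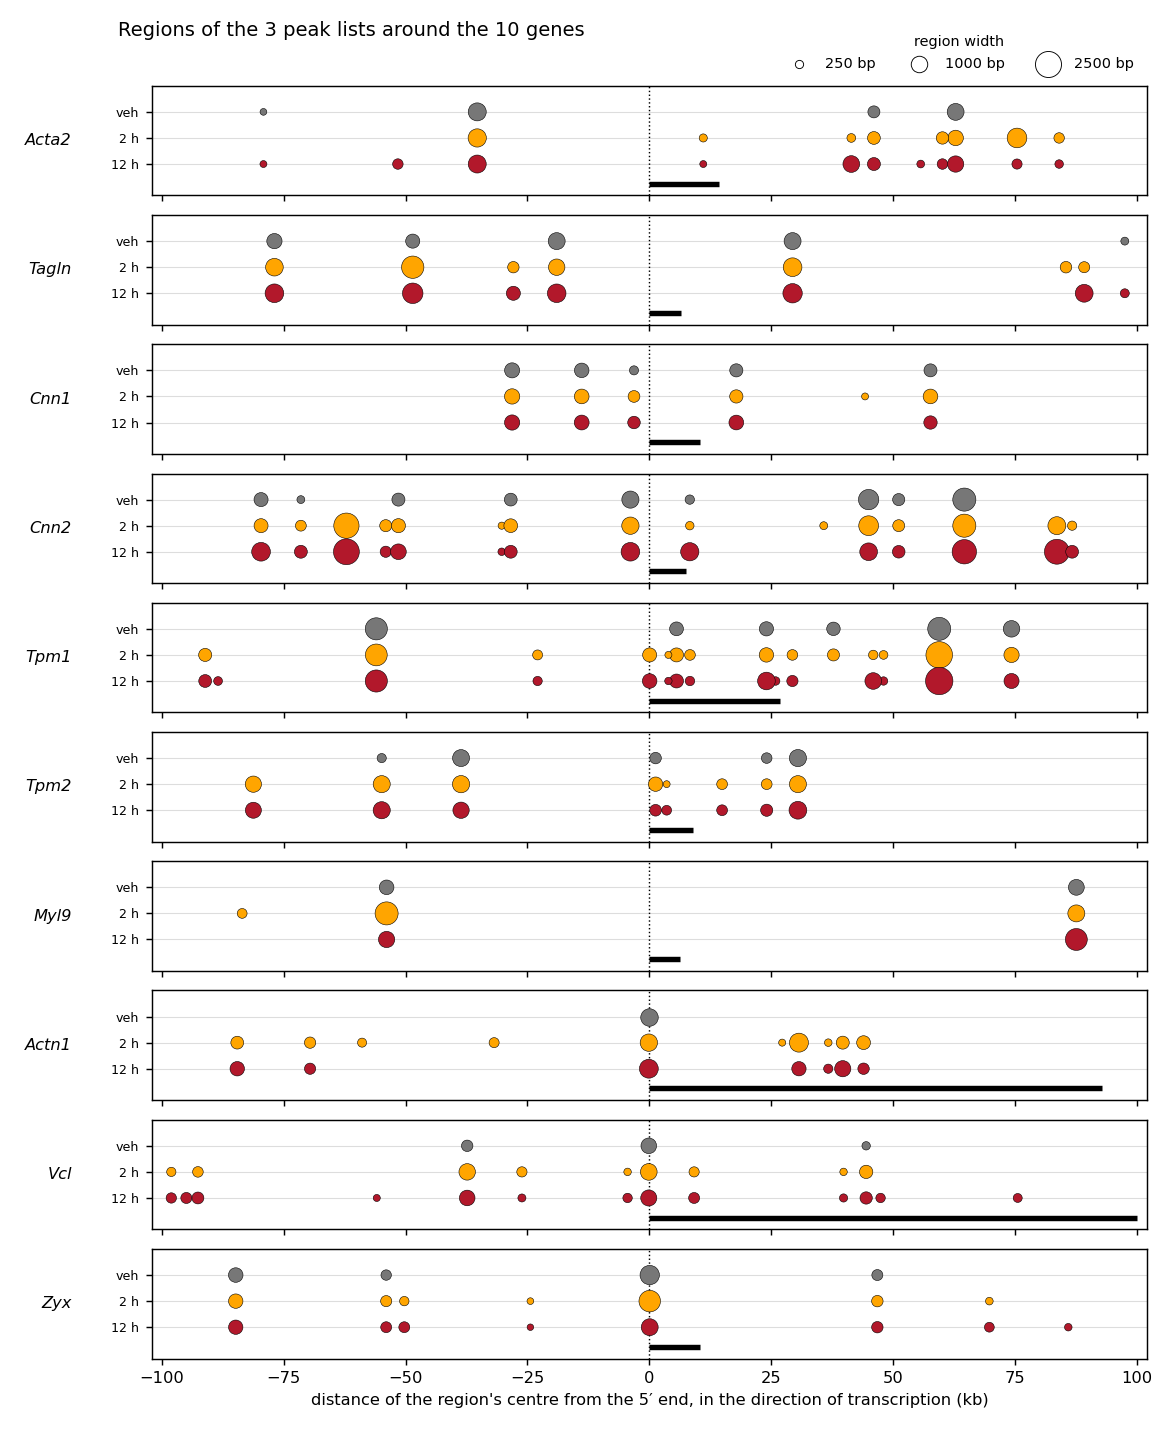
Each row shows 1 gene, with regions of the vehicle (veh, grey), 2 h (orange) and 12 h (red) lists by the distance of their centre from the 5′ end in kb, in the direction of transcription. The area of a circle gives the region's width, and the black bar is the gene body, drawn up to 100 kb. At Actn1 the vehicle list held 1 region, over the 5′ end, whereas at Cnn1 5 of 6 regions were in all 3 lists.

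The loci differed in how many regions they held and in which lists. Tpm1 had the most regions, 16, followed by Cnn2 with 15, Vcl with 13, Acta2 with 11 and Actn1 with 10, and Myl9 had the fewest, 3. The median was 9 regions per gene, where all protein-coding genes had a median of 5 (quartiles 2 to 8). Gained regions were found at 8 of the 10 loci, with none at Cnn1 and Myl9, and 62.7% of all protein-coding genes had 1 or more. The median number was 4 for these genes and 1 over all (quartiles 0 to 2). Such counts were not particular to the 10 loci. The 43 other actin and focal adhesion genes described below had medians of 9 regions and 3 gained ones. The 7 epithelial marker genes had medians of 16 and 5. Tpm1 had 8 gained regions, Actn1 and Vcl 6 each, Acta2 and Cnn2 5 each, Tpm2 and Zyx 3 each and Tagln 2.

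**Figure D2:**
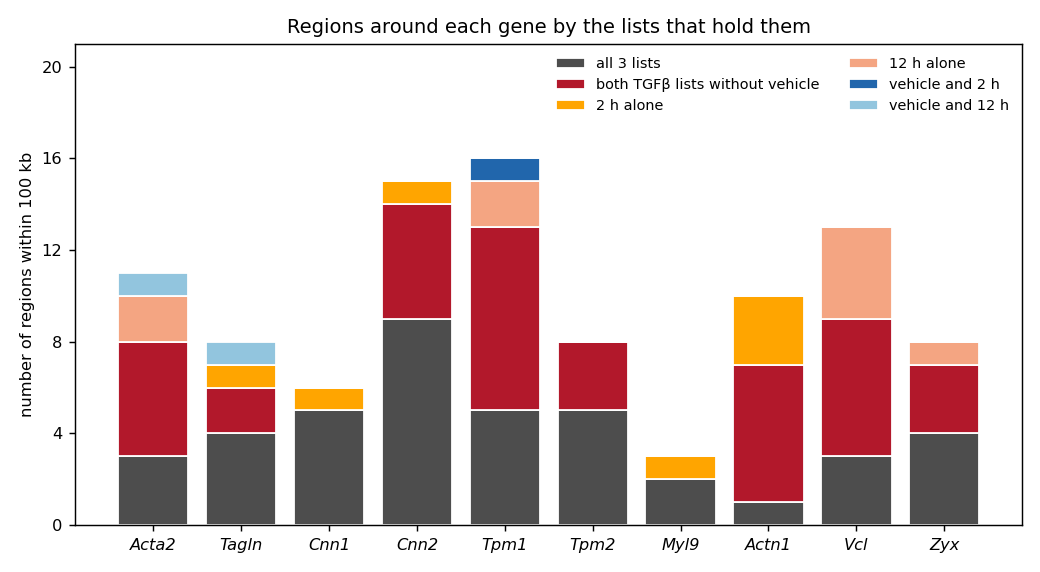
The height of each bar is the number of regions up to 100 kb away from a gene's 5′ end, split by the lists that hold them. Gained regions (dark red) make up 6 of 10 at Actn1 and 0 of 6 at Cnn1.

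Of the 10 genes, 6 had their 5′ end in no list, 3 in all lists and 1 in the TGFβ lists alone. Over all protein-coding genes, 57.1% had theirs in no list and 35.5% in all 3, close to the shares of these 10. The vehicle list covered 3 of the 10 5′ ends, those of Actn1, Vcl and Zyx, where 35.9% of all protein-coding 5′ ends were covered. The 2 h list and the 12 h list each covered 4, the same 3 and that of Tpm1, against 41.4% and 41.6% of all. Tpm1 was the 1 gene of 10 with a 5′ end in both TGFβ lists without vehicle, a pattern that 4.72% of all protein-coding genes had. The 5′ ends of Acta2, Tagln, Cnn1, Cnn2, Tpm2 and Myl9, most of them genes known for their high levels in smooth muscle, lay outside every region in all 3 conditions.

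Acta2 encodes smooth muscle α-actin, which is incorporated into the stress fibres of myofibroblasts. Its 5′ end lies at position 34329826 of chromosome 19, on the minus strand. The nearest region lay 10940 bp inside the gene, in an intron, and was narrow, 243 bp at 2 h and 180 at 12 h, with no vehicle region. The other 10 regions lay outside the gene, most of them at the neighbours Stambpl1 and Fas. The regions over the start sites of both neighbours were in all 3 lists, that of Stambpl1 with 1046, 883 and 979 bp in vehicle, at 2 h and at 12 h, and that of Fas, a death receptor gene, with 1193, 1225 and 1193 bp. By the Stambpl1 region a further 12 h interval of 144 bp fell under the minimum width, and with it the region would measure 1288 bp at 12 h. The gained region that was widest at 2 h, 74708 bp downstream of the 5′ end, was 1418 bp wide at 2 h and 382 bp at 12 h. In the one that was widest at 12 h, 40451 bp downstream, with 281 bp at 2 h and 1028 at 12 h, both lists shared no base and were joined only by the merging of close regions, the single such case among the 38 gained regions. The region 79074 bp upstream was in the vehicle list (168 bp) and at 12 h (179 bp) but not at 2 h.

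Tagln encodes transgelin, an actin-binding protein of the calponin family that is also called SM22α, and its 5′ end lies at position 45744141 of chromosome 9, on the minus strand. No region touched the gene body. The nearest one, 18292 bp upstream, covered a start site of Sidt2 and was in all 3 lists with 1055, 993 and 1273 bp. Start sites of Pcsk7, Pafah1b2 and Sik3 were likewise in all 3 lists, and the region of Pafah1b2 widened from 732 bp in vehicle to 1833 bp at 2 h and 1547 at 12 h. The nearest gained region, 27531 bp upstream and between genes, measured 479 bp at 2 h and 726 at 12 h. The region over a start site of Bace1, 97380 bp downstream, was 232 bp wide in vehicle and 298 bp at 12 h and was lacking at 2 h.

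Cnn1 and Cnn2 encode calponins, which bind actin and restrain the myosin ATPase. At Cnn1, the smooth muscle form, 5 of 6 regions were in all 3 lists and none was gained. Its nearest region, 2860 bp upstream of the 5′ end at position 21903725 of chromosome 9, was in all 3 lists and widened from 305 bp in vehicle to 510 bp at 2 h and 579 at 12 h. Of the other 5 regions, 4 covered start sites of Zfp653, Ecsit, Elof1 and Pigyl in all 3 lists, the widest at 12 h being that of Zfp653 with 836, 863 and 855 bp, and 1 was in the 2 h list alone, 179 bp wide. Cnn2, the more widely expressed form, has its 5′ end at position 79451329 of chromosome 10, in a dense stretch of genes. Its nearest region, 3247 bp upstream, belonged to a start site of the neighbour ORF61 and measured 1082, 1104 and 1277 bp. The nearest gained region, 30183 bp upstream, was narrow, with 191 bp at 2 h and 209 at 12 h. The region over the start of Abca7, 7684 bp downstream, was 323 bp wide in vehicle, 265 bp at 2 h and 1223 at 12 h. The widest gained region of all 10 loci, 60891 bp upstream of Cnn2, covered a start site of Arid3a, a DNA-binding protein gene, with 2351 bp at 2 h and 2463 at 12 h.

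The sequences before these 5′ ends are shown because the CArG box, 2 C, 6 bases of A or T and 2 G, was found there in genes whose start no list covered. Exact matches were searched on both strands from 250 bases before to 50 after each start site. They were found in Tagln, Cnn2 and Myl9, 3 of the 10 genes, against 2.24% of all 22342 protein-coding genes on these chromosomes. Vcl, whose 5′ end was in all 3 lists, had an exact box just before the searched window, at chr14:21748393-21748402, and was not counted. Boxes were thus not confined to genes whose start no list covered. Counted by start site, 4 of the 34 windows of the 10 genes held a box, against 1.35% of all 45940 windows. In Tagln one box lay from -112 to -103 and another from 11 to 20, counted from the start site. In Cnn2 the box lay from -40 to -31, and in Myl9 from -117 to -108. With at most 1 base of the core other than A or T, an alternative added after the data were seen, Acta2 had boxes from -121 to -112 and from -71 to -62, Zyx had 1 and Myl9 a second one, so 5 of the 10 genes were matched, against 14.0% of all genes. The 150 bases before the start site of Tagln (chr9:45744142-45744291), Cnn2 (chr10:79451179-79451328), Myl9 (chr2:156601006-156601155) and Acta2 (chr19:34329827-34329976) follow, 5′ to 3′ on the strand of the gene in NCBIM37, with exact CArG boxes in capitals.
Tagln: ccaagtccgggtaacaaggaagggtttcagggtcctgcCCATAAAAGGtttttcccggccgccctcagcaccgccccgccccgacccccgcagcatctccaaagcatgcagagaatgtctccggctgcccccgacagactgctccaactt
Cnn2: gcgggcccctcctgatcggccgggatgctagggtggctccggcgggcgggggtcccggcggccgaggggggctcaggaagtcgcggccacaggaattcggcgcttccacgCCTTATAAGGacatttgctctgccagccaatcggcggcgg
Myl9: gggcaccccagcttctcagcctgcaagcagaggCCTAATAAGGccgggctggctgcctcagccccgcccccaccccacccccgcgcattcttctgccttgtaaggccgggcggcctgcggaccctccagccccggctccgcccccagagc
Acta2: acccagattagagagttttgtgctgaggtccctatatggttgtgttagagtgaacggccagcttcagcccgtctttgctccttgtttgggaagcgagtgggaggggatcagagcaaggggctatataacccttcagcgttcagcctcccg

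None of these 4 stretches overlapped a region of any list. The match is a description of the letters, and whether SRF was bound was not tested.

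Tpm1 and Tpm2 encode tropomyosins, coiled coils that lie along the actin filament and set which myosins and severing proteins reach it. Tpm1 has separate promoters, of which the upstream one gives rise to the long isoforms that are typical of stress fibres, and the internal one to short isoforms. The lists split the promoters of Tpm1. At the upstream promoter, 10 protein-coding transcripts started between 0 and 263 bp from the 5′ end (position 66897213 of chromosome 9, minus strand), with coding lengths of 846 to 981 bases. No vehicle region covered any of these starts, and all 10 lay in a region of 726 bp at 2 h and of 780 bp at 12 h. At the internal promoter, 6 transcripts started between 5444 and 5697 bp downstream, with coding lengths of 738 to 756 bases, and all 6 were covered in every list. That region kept its width, with 702 bp in vehicle, 721 at 2 h and 716 at 12 h. Its vehicle score was 1000, the highest value of a scale that the deposit does not explain. Most vehicle regions at these loci had the same score. The 150 bases before each start, at chr9:66897214-66897363 and chr9:66891770-66891919 on the minus strand, are shown to set the promoter that only the TGFβ lists held beside the one in every list. Neither held an exact CArG box or AP-1 motif, so no letters are in capitals.
Tpm1 upstream promoter: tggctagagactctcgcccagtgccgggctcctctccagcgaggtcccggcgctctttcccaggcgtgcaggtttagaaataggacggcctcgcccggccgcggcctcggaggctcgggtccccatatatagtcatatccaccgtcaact
Tpm1 internal promoter: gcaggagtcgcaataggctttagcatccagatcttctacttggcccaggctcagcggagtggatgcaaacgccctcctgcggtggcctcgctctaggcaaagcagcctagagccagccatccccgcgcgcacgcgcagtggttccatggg

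Between and behind both promoters lay further gained regions of Tpm1. The intronic region 3806 bp from the 5′ end was 182 bp wide at 2 h and 202 bp at 12 h and held a pair of AP-1 motifs, the site TGAGTCA bound by JUN and FOS proteins, which reads TGACTCA on the other strand. The intronic region 8119 bp from the 5′ end, 424 bp at 2 h and 329 at 12 h, held a CArG box at chr9:66888846-66888855. Both are shown at chr9:66893270-66893343 and chr9:66888831-66888870, on the minus strand, with the motifs in capitals, since they put AP-1 and SRF letters into regions of Tpm1 that the vehicle list lacked.
Tpm1, 3806 bp: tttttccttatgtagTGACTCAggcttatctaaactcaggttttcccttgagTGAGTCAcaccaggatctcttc
Tpm1, 8119 bp: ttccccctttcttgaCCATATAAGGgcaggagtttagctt

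The widest region of the Tpm1 locus, 58078 bp from the 5′ end and downstream of the gene, was in all 3 lists and measured 1943 bp in vehicle, 2601 at 2 h and 2759 at 12 h. It held 4 AP-1 motifs. Another region, 37412 bp downstream, was the only one of the 98 that the vehicle and 2 h lists held (669 and 537 bp) and the 12 h list lacked. The gained regions 22740 and 90792 bp upstream and 29101 bp downstream had the 5′ end of Tpm1 as their nearest, and measured 366, 633 and 417 bp at 2 h and 318, 609 and 466 bp at 12 h.

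Tpm2 has its 5′ end at position 43536637 of chromosome 4, on the minus strand. A region of all 3 lists began 901 bp inside the gene and 524 bp or more from each of its start sites, and measured 488 bp in vehicle, 759 at 2 h and 504 at 12 h. A gained intronic region 3378 bp from the 5′ end was narrow, with 176 bp at 2 h and 352 at 12 h. The region over the start sites of Tln1, the gene of the focal adhesion protein talin, and Creb3 lay 38039 bp upstream and was in all 3 lists, with 1059, 1097 and 980 bp. The widest region of the locus at 12 h, over a start site of Ccdc107 and 29880 bp downstream, measured 1082, 1068 and 1165 bp. At the start sites of Gba2 and Rgp1 the region widened from 310 bp in vehicle to 1071 bp at 2 h and 1080 at 12 h.

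Myl9 encodes a regulatory light chain of myosin II, whose phosphorylation drives contraction. Its locus held the fewest regions of the 10. The nearest, 52912 bp upstream of the 5′ end at position 156601156 of chromosome 2, covered a start site of Dlgap4 and was 788 bp wide in vehicle, 1954 bp at 2 h and 975 at 12 h. The second was that of the start of 1110008F13Rik, with 921, 1063 and 1764 bp, and the third, 83346 bp upstream, was in the 2 h list alone. No region of any list lay within 50 kb of the 5′ end of Myl9.

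Actn1 encodes α-actinin, the crosslinker that bundles actin filaments in stress fibres and binds vinculin in focal adhesions. Its 5′ end, at position 81361358 of chromosome 12 on the minus strand, was covered in all lists by a region of 1127 bp in vehicle, 1109 at 2 h and 1309 at 12 h. That was the only region of the vehicle list at this locus. The gene body held 5 more regions, all intronic, between 27157 and 44294 bp from the 5′ end, of which 4 were gained and 1 was in the 2 h list alone. The one 30024 bp into the gene was 1323 bp wide at 2 h and 755 bp at 12 h. The one 39192 bp into the gene was narrower at 2 h, with 621 bp, than at 12 h, with 964 bp. Upstream, the regions 31655 and 58778 bp away were in the 2 h list alone and those 69360 and 84149 bp away were gained. In the 500 bp around region centres, 44.1% of all regions absent from the vehicle list held an AP-1 motif. Counted over whole regions, without a share for all regions, 6 of the 9 Actn1 regions lacking in vehicle held 1 motif each. This count cannot be set beside the 44.1%, since the motifs of the regions at 30024 and 39192 bp lay outside those 500 bp. Those of the 4 intronic regions with a motif are shown with 15 bases on either side, at chr12:81334122-81334158, chr12:81330151-81330187, chr12:81324777-81324813 and chr12:81321338-81321374 on the minus strand, named by the distance of the region from the 5′ end, with the AP-1 motif in capitals.
Actn1, 27157 bp: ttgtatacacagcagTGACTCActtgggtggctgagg
Actn1, 30024 bp: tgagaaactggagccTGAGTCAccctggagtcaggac
Actn1, 36544 bp: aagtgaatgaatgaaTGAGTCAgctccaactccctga
Actn1, 39192 bp: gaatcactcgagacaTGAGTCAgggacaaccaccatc

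**Figure D3:**
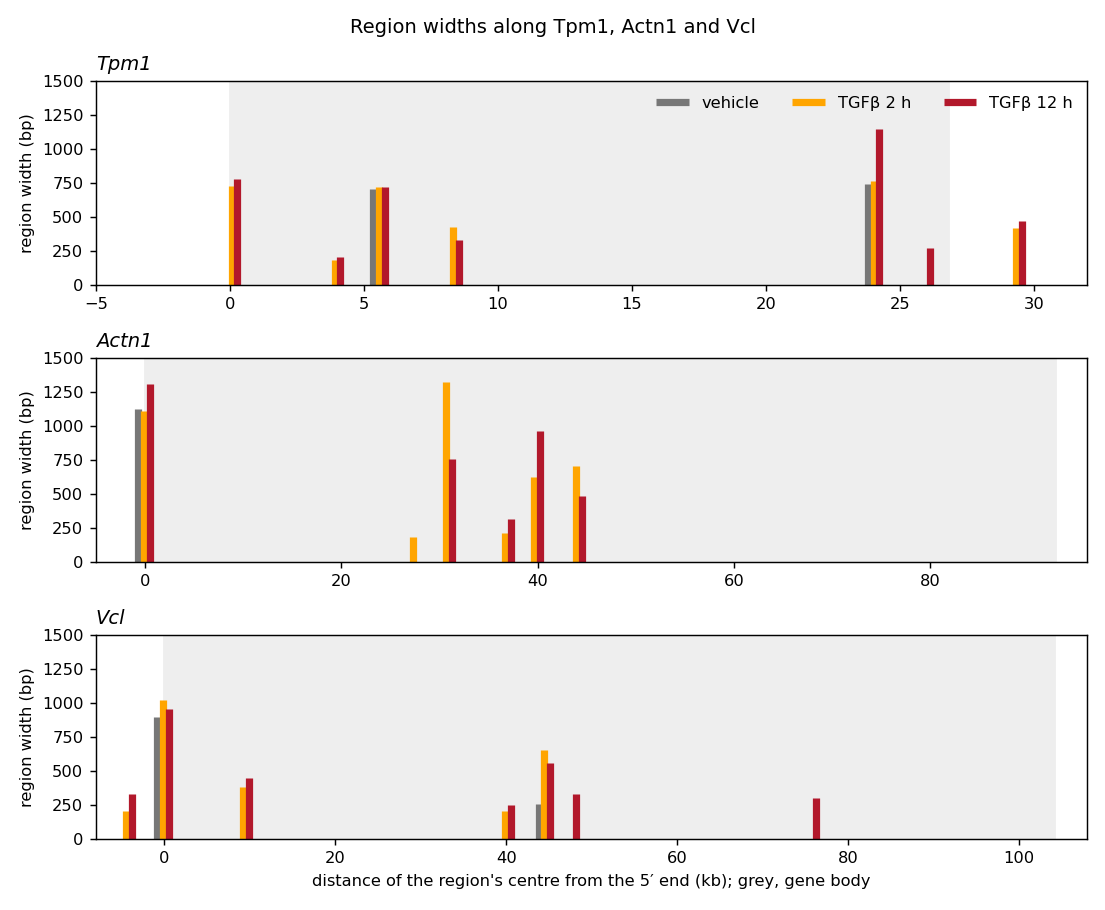
The height of each bar is the width in bp of a region in the vehicle, 2 h or 12 h list, and the x axis gives the distance of its centre from the 5′ end in kb, with the bars of 1 region set side by side and the gene body in grey. Tpm1 has no vehicle bar at its 5′ end but 1 of 702 bp at the internal promoter, and Actn1 has a vehicle bar at its 5′ end only.

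Vcl encodes vinculin, which links talin and α-actinin to actin at focal adhesions. The region over its 5′ end, at position 21748655 of chromosome 14 on the plus strand, was in all 3 lists, with 896 bp in vehicle, 1024 at 2 h and 953 at 12 h. A second annotated start, 85487 bp into the gene, was in no list. In the gene body 1 other region was in all 3 lists, 44117 bp from the 5′ end, and it widened from 260 bp in vehicle to 654 bp at 2 h and 559 at 12 h. The vehicle list lacked 4 others, of which those at 8961 and 39713 bp were gained and those at 47265 and 75415 bp were in the 12 h list alone. Vcl had 4 regions in the 12 h list alone and none in the 2 h list alone, whereas Actn1 had 3 in the 2 h list alone and none in the 12 h list alone. The nearest gained region lay 4299 bp upstream and measured 207 bp at 2 h and 327 at 12 h. At the far end of the window, the region over a start site of Plau, the gene of urokinase, was gained, with 415 bp at 2 h and 521 at 12 h.

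Of the 7 exact CArG boxes within the 98 regions, 5 lay in 3 regions of Vcl, and Tpm1 and Tagln had 1 each. A box lay in the region over the Vcl 5′ end, at chr14:21748393-21748402. The region 36804 bp upstream, in all 3 lists with 482 bp in vehicle, 997 at 2 h and 899 at 12 h, held 3 boxes and an AP-1 motif. The gained region 25931 bp upstream, 387 bp at 2 h and 238 at 12 h, held a box and an AP-1 motif. A stretch of each region is shown in that order, at chr14:21748378-21748417, chr14:21711290-21711438 and chr14:21722479-21722594 on the plus strand, with CArG boxes and AP-1 motifs in capitals, because Vcl is the locus where both motifs fell into the same regions.
Vcl, 5′ end: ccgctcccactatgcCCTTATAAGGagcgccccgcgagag
Vcl, 36804 bp upstream: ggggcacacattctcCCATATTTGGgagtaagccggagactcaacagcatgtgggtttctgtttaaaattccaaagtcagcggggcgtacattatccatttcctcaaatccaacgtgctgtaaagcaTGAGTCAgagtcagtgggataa
Vcl, 25931 bp upstream: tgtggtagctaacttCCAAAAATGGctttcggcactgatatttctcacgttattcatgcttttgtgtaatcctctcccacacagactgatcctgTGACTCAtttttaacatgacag

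Zyx encodes zyxin, a LIM protein that moves from focal adhesions to strained stress fibres. Its 5′ end, at position 42299827 of chromosome 6 on the plus strand, lay in a region of 1376 bp in vehicle, 1700 at 2 h and 1054 at 12 h. At 12 h a further interval of 140 bp there fell under the minimum width, and with it the region would measure 1283 bp, still below the other lists. An AP-1 motif lay from -121 to -115 of the Zyx start, the only AP-1 match by a start site of the 10 genes, and 6.84% of all protein-coding genes had one. The gained regions of Zyx, 50051 and 24320 bp upstream and 69566 bp downstream, measured 326, 166 and 216 bp at 2 h and 439, 158 and 356 bp at 12 h.

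The summed width of the regions within 100 kb, merged gaps included, was larger in the TGFβ lists at each of the 10 loci. For Actn1 it was 1127 bp in vehicle, 5899 at 2 h and 5056 at 12 h, or 5.23 and 4.49 times the vehicle width. For Vcl it was 1638, 4587 and 5847 bp, or 2.80 and 3.57 times. The ratio was smallest for Cnn1, with 3175, 3788 and 3706 bp, or 1.19 and 1.17 times. The median of the 10 genes was 1.74 at 2 h and 1.87 at 12 h, near that of the 17232 protein-coding genes with a vehicle region, 1.73 (quartiles 1.38 to 2.29) and 1.78 (1.41 to 2.41). Actn1 lay above the upper quartile at both times, as did Vcl, and Cnn1 and Zyx lay below the lower quartile at both.

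**Figure D4:**
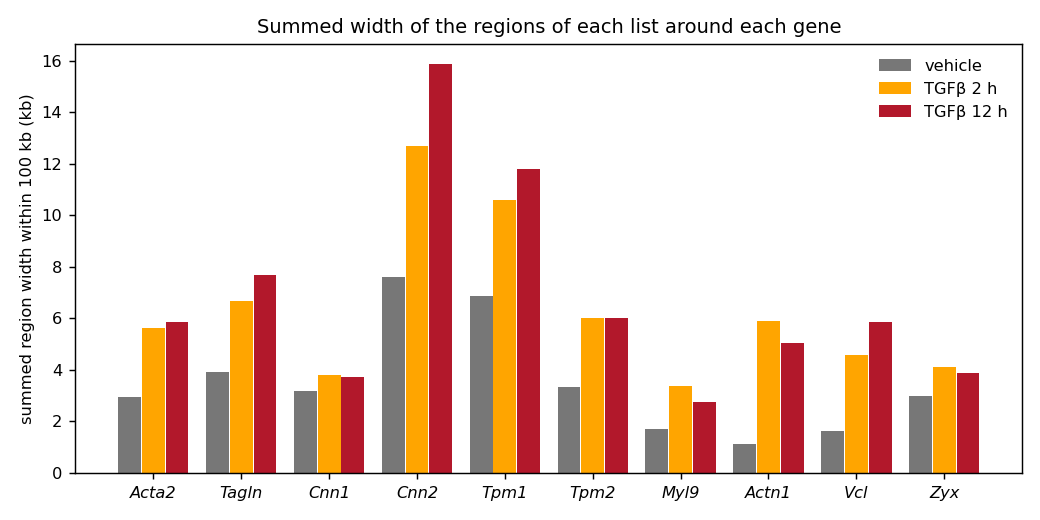
Bars give the summed width in kb of the regions of each list up to 100 kb from each gene's 5′ end, merged gaps included. The vehicle bar is the lowest of the 3 at every gene, with the largest ratio at Actn1 (1127 against 5899 and 5056 bp).

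Regions that were already in the vehicle list were mostly wider in the TGFβ lists. A vehicle region that matched a single TGFβ region, which matched it alone, was wider at 2 h in 29 of 42 cases (69.0%, 54.0 to 80.9), with a median difference of 35 bp, where 82.7% of all matched regions were wider. At 12 h, 36 of 43 were wider (83.7%, 70.0 to 91.9), with a median difference of 91 bp, against 83.6% of all. The median width of the 41 regions of all 3 lists was 777 bp in vehicle, 863 at 2 h and 975 at 12 h, and over all such regions it was 603, 830.5 and 859 bp. At 2 h the largest differences among these 41 were those at the start sites of Pafah1b2, Dlgap4 and Rgp1 named above. Gained regions were narrower than these, with a median of 409.5 bp at 2 h and 442 at 12 h, against 463 and 513 bp for all gained regions.

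**Figure D5:**
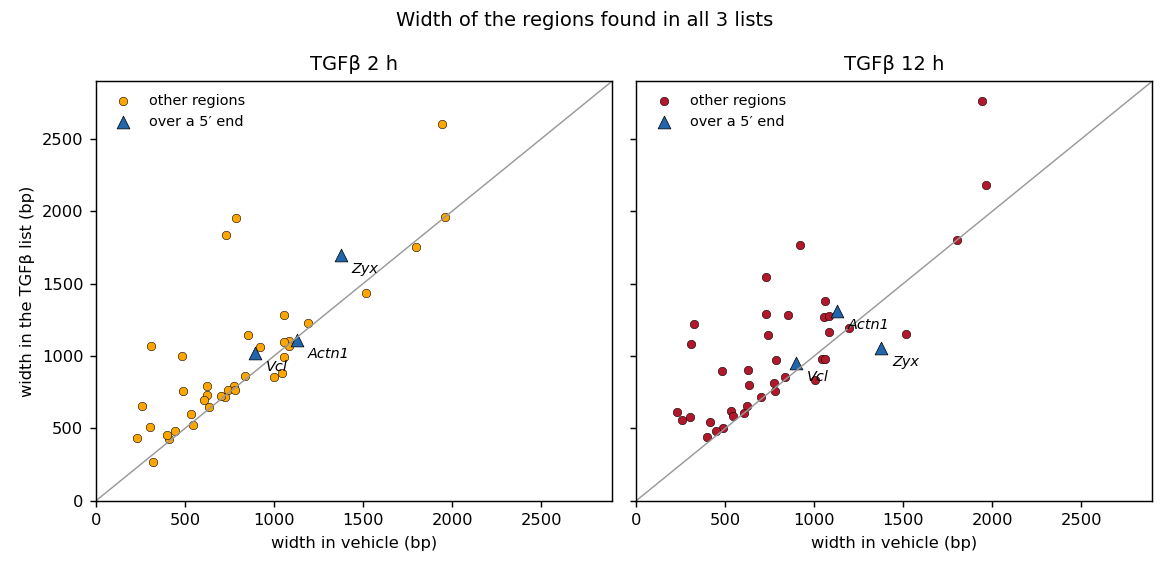
Each point is 1 of the 41 regions found in all 3 lists, with its width in vehicle in bp on the x axis and its width at 2 h (left) or 12 h (right) on the y axis, and the line marks equal width. Most points lie above the line, and the regions over the 5′ ends of Actn1, Vcl and Zyx (triangles) lie near it, with Zyx above it at 2 h (1700 against 1376 bp) and below it at 12 h (1054 bp).

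Most gained regions lay away from start sites. Of the 64 regions that covered no start site of a protein-coding transcript, 34 were gained (53.1%, 41.1 to 64.8) and 12 were in all 3 lists. Of the 34 that covered one, 4 were gained, those of Tpm1, Arid3a, Sbno2 and Plau, and 29 were in all 3 lists. Over all regions, 10250 of 29816 without a start site (34.4%) and 996 of 9619 with one (10.4%) were gained. By position, 11 of 22 regions over the body of the gene were gained (Wilson interval 30.7% to 69.3%), as were 15 of 42 upstream of it (35.7%, 23.0 to 50.8) and 12 of 34 downstream (35.3%, 21.5 to 52.1), and these intervals overlapped.

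With windows of 500 bp over all 98 regions, the Wilson intervals of the motif shares included the shares over all regions of the same lists. With each window set at the region's centre, AP-1 motifs were found in 33 of 98 regions (33.7%, 25.1 to 43.5), against 35.6% of all. They were found in 15 of the 38 gained regions (39.5%, 25.6 to 55.3) and 10 of the 41 regions of all 3 lists (24.4%, 13.8 to 39.3), where the shares over all regions of these kinds were 47.3% and 24.4%. The CArG box was found in 4 of 98 (4.08%, 1.60 to 10.0, against 2.30% of all), and the TEAD motif GGAATG in 23 of 98 (23.5%, 16.2 to 32.8, against 28.1%). The palindrome GTCTAGAC, bound by SMAD3 and SMAD4, was in none of the 98, which allows a share of up to 3.77%, and in 0.819% of all regions. Of the 31 regions nearest to a member, 4 held a CArG box (12.9%, 5.13 to 28.9), an interval that lay above the 2.30% of all regions. Of these 4 regions, 3 lay at Vcl and 1 at Tpm1, so the share describes those loci and not the 10 genes. Regions of 1 locus are not independent, which the interval does not cover. These are matches of letters in fixed windows and do not show binding.

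Other genes of the actin and focal adhesion machinery were taken from a list of 44, of which 43 were found in the annotation. Of these, 25 had their 5′ end in all 3 lists (58.1%, 43.3 to 71.6, against 35.5% of all protein-coding genes), among them Actb and Actg1, the cytoplasmic actins, Myh9, the heavy chain of non-muscle myosin, and Srf. Another 16 had theirs in no list (37.2%, 24.4 to 52.1, against 57.1% of all), namely Actg2, Acta1, Actc1, Tpm3, Myh10, Myh11, Flna, Smtn, Lmod1, Palld, Tns1, Parva, Csrp1, Tgfb1i1, Myocd and Rhob. Counting any protein-coding start site, 32 of the 43 were in all 3 lists, 2 in the 12 h list alone and 9 in none. The shares over all protein-coding genes were taken by 5′ end only, so these counts have no matching share to be set against. Tpm3, Flna, Smtn, Palld and Csrp1, in no list by their 5′ end, and Cald1 and Mylk had another start in all 3 lists, and Tns1 and Parva had one in the 12 h list alone. Of the 406 regions in their windows, 120 were gained (29.6%), against 28.5% of all regions.

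The 5′ ends of Cald1 and Mylk were in both TGFβ lists without vehicle, like that of Tpm1, which made 2 of 43 (4.65%, 1.28 to 15.5) where 4.72% of all protein-coding genes had this pattern. Cald1 encodes caldesmon, which binds actin and tropomyosin. Its upstream start sites, 0 to 65 bp from the 5′ end, lay in a region of 602 bp at 2 h and 775 at 12 h, 2 internal ones, 110942 and 111134 bp downstream, in a region of all 3 lists with 1264, 1092 and 1497 bp, and the other 5, 147452 to 147886 bp downstream, in no list. Mylk encodes myosin light chain kinase, which phosphorylates the product of Myl9. The region over the 5′ end of its gene record measured 657 bp at 2 h and 595 at 12 h, but no protein-coding transcript starts there, and the first start of one, 39711 bp downstream, lay in a region of 215 bp in vehicle, 537 at 2 h and 411 at 12 h. Both genes were picked out by the same pattern at the 5′ end, so their number is a description.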

How the data were processed

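ATAC-seq was performed in 6 samples of NMuMG cells, 2 per condition, grouped by the sample labels. The authors ran the ENCODE pipeline on mm9, called peaks with MACS2 2.1.2 and kept those that recurred in both replicates (irreproducible discovery rate), in 1 deposited list per condition. The deposited score column was used in the vehicle list only, since in both TGFβ lists it numbers the lines. The lists hold no read counts, and the library read totals that the study gives were not used here, so depth and its precision are not set beside these values.

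Distinct intervals of 150 bp or more were merged over gaps under 1000 bp, first per list, then across lists. A list held a region when at least 1 bp overlapped. Genes, start sites, exons and sequences were those of GENCODE vM1 on NCBIM37, and no region extended past a chromosome end. Motifs were exact matches on both strands in the 500 bp around region centres and from 250 bases before to 50 after start sites. No test between conditions was run, as the lists give no value per replicate. Named were all 10 genes and, at each, the region at or nearest the 5′ end, the nearest gained and the widest 12 h region, vehicle regions that a TGFβ list lacked, and other genes with a 5′ end in no list or in the TGFβ lists alone. Others were named after their values were seen. The genes and lists were chosen with earlier results of these data known. Interval code was checked against direct counts on simulated intervals, and 0 of 1487 checks disagreed. Python 3.11.15, numpy 2.4.6, pandas 2.3.3, scipy 1.17.1 and matplotlib 3.10.9 were used.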

Additional observations from a re-analysis of the deposited data

Results flagged for a closer look

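Intervals narrower than 150 bp were left out of all comparisons. Within 100 kb of the 10 5′ ends the 12 h list held 2 of them, against 0 in the vehicle list and 0 in the 2 h list, and they were picked out because unused data held more such intervals than the vehicle list. The first, 140 bp wide, lay 711 bp upstream of the 5′ end of Zyx, overlapping the region that the other lists hold there. The second, 144 bp wide, lay 62056 bp downstream of the 5′ end of Acta2, outside every region but close enough to one to be merged. With it the 12 h region over the start site of Stambpl1 would measure 1288 bp in place of 979, above the 1046 bp in vehicle. The difference was not tested.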

How the results depend on the processing

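Of the values recomputed under alternatives, 60 stayed within 1.5 times the count or within the Wilson interval given above, and 24 moved. A window of 50 kb, smaller by construction, held 54 regions, of which 25 were in all 3 lists and 22 were gained, and 26, 52 and 49 were in the vehicle, 2 h and 12 h lists. Regions with the member as the gene of the nearest 5′ end numbered 31, with 11 in all 3 lists, 16 gained (51.6%), and 11, 28 and 30 in the 3 lists. Of those, 81.8% of matched regions were wider at 2 h, and of the regions of all 3 lists 54.5% held an AP-1 motif (28.0 to 78.7, against 24.4% over all regions of this kind) and 18.2% a CArG box (5.14 to 47.7, against 1.75%). The regions behind this CArG share lay at Vcl alone. With TGFβ lists cut by width to the length of the vehicle list, 59 regions remained, 8 of them gained (13.6%), with 46 at 2 h and 48 at 12 h. In windows of 200 bp, AP-1 was found in 7.32% of the regions of all 3 lists and 21.1% of the gained ones, against 14.6% and 31.2% over all such regions, and CArG in 3.06% of the 98 (1.05 to 8.62, against 0.875%). Those CArG boxes lay at Vcl and Tpm1 alone. With 1 departure in the CArG core, 5 genes had a box by a start site in place of 3. The counts of covered 5′ ends stayed within 1.5 times under every alternative run for them, and with any start site counted, the vehicle list covered 4 genes, through the internal promoter of Tpm1. No paired analysis was possible because the lists hold no value per replicate, and leaving out a replicate was not possible for the same reason. An absent region may lie under the threshold of the authors, and its reads are not in the lists.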
